A study of Mus musculus with 3 samples.

Results

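*Nr3c1*, *Fkbp5*, *Tsc22d3*, *Per1*, *Sgk1*, *Ddit4*, *Klf9*, *Txnip*, *Mt1* and *Mt2* were examined in single meningeal cells from home cage (HC) mice and from mice after chronic social defeat (CSD). These 10 genes were picked by symbol from the 27998 genes of the count table, and each symbol matched 1 gene. All mice were male C57BL/6J aged 10 to 12 weeks. The meninges of 4 mice were pooled for each library, giving 2 HC libraries (HC replicate 1 and 2) from 8 mice that were not stressed. The only CSD library, CSD replicate 1, came from 4 mice that had been defeated for 14 days and were classed as stress-susceptible by behavior. Unless stated otherwise, the study killed mice 2 h after the last defeat. Responses to that last encounter and to repeated defeat therefore cannot be told apart. All 3 pools were digested with collagenase at 37 °C for 30 min, sorted for live nucleated singlets and captured in separate lanes of the same 10x chip by the 3′ v2 chemistry. As CSD was represented by a single pool in a lane of its own, an effect of defeat cannot be told apart from any other property of that pool or lane.

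Glucocorticoids are steroid hormones that the adrenal gland releases on a daily rhythm and in response to stress. They bind the glucocorticoid receptor, encoded by *Nr3c1*, which then leaves its heat shock protein complex, enters the nucleus and binds palindromic DNA elements. *Fkbp5* encodes a co-chaperone that lowers the hormone affinity of the receptor and is itself induced by it, forming a negative feedback loop. *Tsc22d3* (GILZ) is an anti-inflammatory leucine zipper protein, *Per1* a repressor of the circadian clock, *Sgk1* a kinase that regulates ion transport, *Ddit4* an inhibitor of mTORC1, *Klf9* a zinc finger transcription factor and *Txnip* an inhibitor of thioredoxin and of glucose uptake. *Mt1* and *Mt2* encode metallothioneins, small cysteine-rich proteins that bind zinc and copper, and are induced by metals through the factor MTF-1 and by glucocorticoids.

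The libraries held 9891861, 8814690 and 10206236 unique molecular identifiers (UMIs, counted molecules) in the order HC replicate 1, HC replicate 2, CSD, which is kept below, and 2599, 1702 and 2756 barcodes passed the cell filters. HC replicate 2 stood apart in its free RNA, with 24.1% of its UMIs in barcodes of at most 100 UMIs (empty droplets), against 7.87% and 5.48% in the others. Cells were clustered without the 10 genes and without the pathway genes below, and 17 cell types were named from marker genes, leaving 309 of 7057 cells unnamed. Of these types, 13 had at least 20 cells in every library and were tested. They include border macrophage-like cells, the resident macrophages of the meninges, and cDC-like cells, conventional dendritic cells. Neutrophil-like cells made up 784, 551 and 1306 cells, and fibroblast-like cells only 22 in CSD. The olfactory neuron-like and microglia-like clusters carried *Omp* and *P2ry12*, markers of cells of the neighboring nasal epithelium and brain. The T-like cluster also scored high for the innate lymphoid list, next after its own, with *Il7r* and *Icos* among its leading genes.

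Start-site sequences of these genes were inspected for the letters that the receptor, MTF-1 and circadian factors are known to bind, because they show how the genes differ in their promoters. RefSeq windows on GRCm38.p6, running from 250 bases before a start to 50 after it, were found for 9 of the 10 genes, the exception being *Nr3c1*, and numbered 17 as some genes have several starts. The full receptor palindrome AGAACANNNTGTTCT occurred in 3 of 32851 promoters of the genome (0.00913%), and 1 of them was a start of *Sgk1*, inside its gene model. Shown with 30 bases after the start and the palindrome in capitals (positions -189 to -175, the start being 0), this window lies at chr10:21993640-21993919 on the plus strand.
Sgk1: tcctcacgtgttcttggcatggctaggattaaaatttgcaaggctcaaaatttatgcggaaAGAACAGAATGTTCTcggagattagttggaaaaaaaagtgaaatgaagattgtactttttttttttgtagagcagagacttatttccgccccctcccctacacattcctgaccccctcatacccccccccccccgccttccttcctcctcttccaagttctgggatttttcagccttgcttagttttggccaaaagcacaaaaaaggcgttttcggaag
An E-box, CACGTG, overlaps a single arm of the palindrome, TGTTCT, near the beginning of that window. This arm occurred in 19.0% of promoters and, among the 9 genes, in those of *Tsc22d3* and *Sgk1*.

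The metallothionein windows are shown with the core of the metal response element in capitals (TGCACNC or TGCGCNC on either strand). *Mt1* lies at chr8:94179082-94180327 and *Mt2* at chr8:94172664-94173568, both on the plus strand and 5513 bases apart, and their printed windows are chr8:94178839-94179118 and chr8:94172368-94172647.
Mt1: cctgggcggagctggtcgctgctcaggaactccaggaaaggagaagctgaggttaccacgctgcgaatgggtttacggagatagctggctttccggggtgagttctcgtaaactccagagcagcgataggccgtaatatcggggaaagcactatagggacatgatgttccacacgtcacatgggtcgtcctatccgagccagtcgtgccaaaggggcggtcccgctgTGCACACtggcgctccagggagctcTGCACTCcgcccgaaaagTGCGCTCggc
Mt2: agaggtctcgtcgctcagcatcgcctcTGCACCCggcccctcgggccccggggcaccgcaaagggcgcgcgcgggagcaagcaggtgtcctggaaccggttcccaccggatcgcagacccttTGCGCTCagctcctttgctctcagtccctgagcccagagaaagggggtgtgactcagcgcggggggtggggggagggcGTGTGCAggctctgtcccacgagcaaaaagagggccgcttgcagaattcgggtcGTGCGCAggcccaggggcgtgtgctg
*Mt1* held 3 cores and *Mt2* 4. At least 1 core was present in 25.7% of all promoters, at least 3 in 1.97% and at least 4 in 0.517%. Among the other members, single cores were found in windows of *Per1*, *Sgk1*, *Ddit4* and *Txnip*. The longest stretch shared by an *Mt1* and an *Mt2* transcript was 20 bases. *Mt2* overlaps the antisense gene Gm45774, and the sources used here do not say how reads over such pairs were assigned.

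Windows of *Fkbp5* and *Per1* are shown with the E-box CACGTG in capitals, a motif present in 7.15% of promoters and bound by the clock factors BMAL1 and CLOCK as well as by MYC proteins. Both windows begin inside the gene models, at internal starts, with *Fkbp5* at chr17:28486120-28486399 on the minus strand and *Per1* at chr11:69098699-69098978 on the plus strand.
Fkbp5: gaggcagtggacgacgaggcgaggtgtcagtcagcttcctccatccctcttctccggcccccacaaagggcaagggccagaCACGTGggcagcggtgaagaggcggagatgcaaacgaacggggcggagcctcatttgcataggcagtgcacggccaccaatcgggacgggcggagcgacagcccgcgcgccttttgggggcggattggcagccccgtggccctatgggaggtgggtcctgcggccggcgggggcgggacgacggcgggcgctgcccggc
Per1: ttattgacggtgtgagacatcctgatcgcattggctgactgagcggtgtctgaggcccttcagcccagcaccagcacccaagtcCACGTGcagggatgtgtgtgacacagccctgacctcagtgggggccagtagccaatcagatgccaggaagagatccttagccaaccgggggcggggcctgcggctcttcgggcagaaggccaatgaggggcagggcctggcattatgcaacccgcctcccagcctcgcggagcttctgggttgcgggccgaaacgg
Neither window held the arm TGTTCT. A match or its absence describes only these letters in this stretch. *Fkbp5* spans chr17:28399094-28517527 and overlaps 4 other gene models, 2 of them on its own strand.

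Levels were then compared between cell types, as UMIs of the gene divided by the UMI total of the type in each library and multiplied by 1000000 (CPM, without further scaling), with mean ± SD over the 3 libraries. These levels describe clusters and carry no test. *Sgk1* was a microglia-like gene, at 399.9, 599 and 412 CPM in the 3 libraries (471 ± 112, n = 3), and the next type, border macrophage-like, averaged 52.0. *Klf9* was a fibroblast-like gene, at 547, 640.3 and 712 CPM (633 ± 82.3, n = 3), against 90.5 in monocyte-like cells. In both cases the lowest library of the leading type lay far above every library of the next.

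*Tsc22d3* was high in fibroblast-like (592 ± 131 CPM), mature B-like (579 ± 87.6) and pre-B- and immature B-like cells (432 ± 86.6, n = 3 each), which did not separate beyond their spread. *Txnip* was highest in microglia-like cells (302 ± 51.5 CPM), followed by mast cell- and basophil-like cells at 223 ± 70.6. *Nr3c1*, the receptor, was found in every type, from 25.6 CPM in olfactory neuron-like cells to 146 ± 13.5 in fibroblast-like and 132 ± 39.6 in microglia-like cells, and these leading types overlapped. *Fkbp5* ranged from 15.02 CPM in olfactory neuron-like to 151 ± 29.0 in fibroblast-like cells, again overlapping with the next type, border macrophage-like, at 88.0 ± 49.1. With every cell thinned to 500 UMIs, fibroblast-like cells averaged 64.1 CPM of *Fkbp5* and border macrophage-like cells became the highest. *Ddit4* stood at 105 ± 57.8 CPM in mast cell- and basophil-like cells, a value from 20 UMIs, and at 85.3 ± 28.6 in microglia-like cells. *Per1* reached no more than 35.3 CPM, in T-like cells, and had no UMI in mast cell- and basophil-like cells.

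Both metallothioneins were highest in olfactory neuron-like cells. *Mt1* averaged 2056 ± 399 CPM there, then 1035 ± 361 in fibroblast-like, 930.2 ± 236 in border macrophage-like, 752 ± 208 in microglia-like and 634 ± 93.7 in cDC-like cells (n = 3 each), while lymphoid, plasmacytoid and granulocyte types stayed between 85.7 and 147. *Mt2* followed with 755 ± 189 CPM in olfactory neuron-like and 312 ± 249.5 in fibroblast-like cells. Empty droplets held 739, 328 and 438 CPM of *Mt1* in the 3 libraries, more than any neutrophil-like, lymphoid or preneutrophil-like sum.

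**Figure D1:**
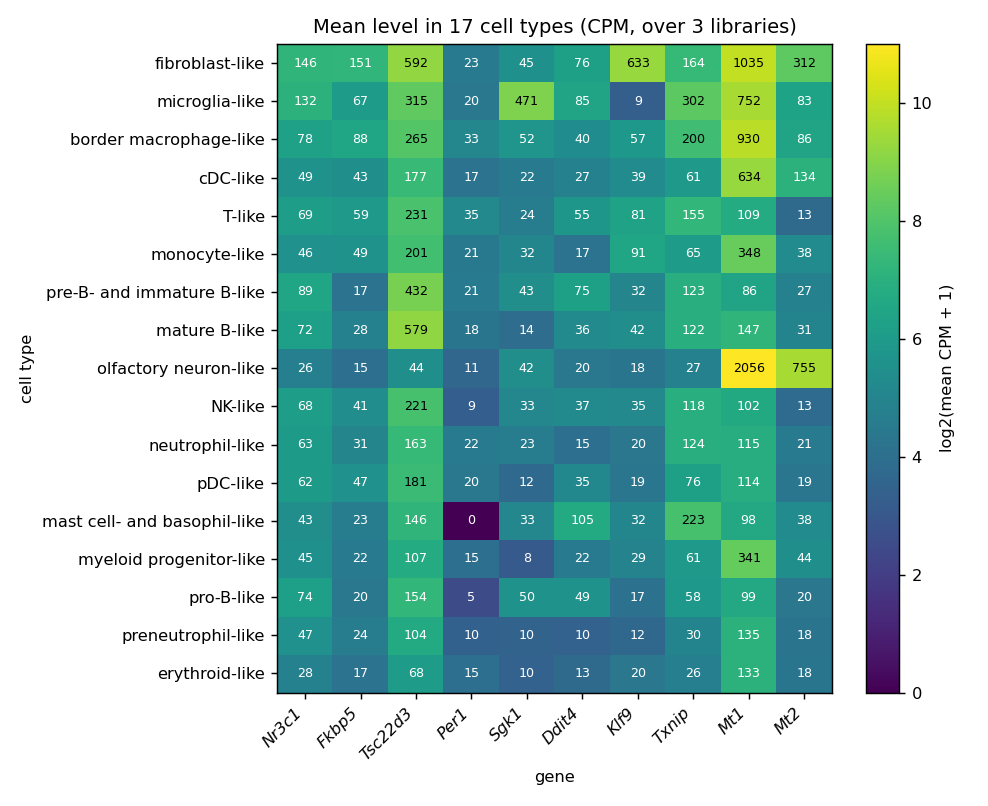
Mean CPM of each of the 10 genes (columns) in 17 named cell types (rows), averaged over the 3 libraries, with the mean printed in each cell and color on a log2(mean CPM + 1) scale. *Sgk1* stands out in microglia-like cells at 471 and *Klf9* in fibroblast-like cells at 633, while *Mt1* and *Mt2* peak in olfactory neuron-like cells.

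CSD was compared with HC within each type on UMIs summed per library, by edgeR's quasi-likelihood test with TMM scaling and Benjamini-Hochberg adjustment over all genes of at least 20 UMIs, at a threshold of 0.05. Fold changes below are log2, CSD over HC, from this scaled fit. The spread came from the 2 HC pools with 1 residual degree of freedom, so p-values compare pools, and the CSD pool was taken to vary like them. Of 130 pairs of gene and type, 107 had enough UMIs. In neutrophil-like cells all 10 genes were tested and 2 were called, *Fkbp5* higher and *Mt1* lower, where 3.17% of 7921 genes were called (1.25% higher and 1.92% lower). In the other types 4 calls were made: *Fkbp5* in cDC-like cells, where 0.369% of genes were called, *Fkbp5* in monocyte-like cells (1.15%), *Mt2* in fibroblast-like cells (0.407%) and *Mt1* in T-like cells (0.546%). None of the 6 was called by DESeq2. edgeR's prior degrees of freedom, the weight given to the spread shared by all genes, were infinite in T-, cDC- and monocyte-like cells, 1354 in neutrophil-like, 22.2 in fibroblast-like and 5.98 in border macrophage-like cells, so that similar changes could receive unlike adjusted p-values. As bulk sums were tested, fewer cells with the transcript and less of it per cell cannot be told apart.

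No member was called in the remaining cell types by edgeR or DESeq2. In each, 1 or 2 members had an unadjusted edgeR p under 0.05, except the pro-B-like and olfactory neuron-like cells, which had 0. That p was reached by 251 of 4927 genes in NK-like, 215 of 5902 in border macrophage-like and 215 of 3440 in mature B-like cells. In microglia-like cells 244 of 4543 did, in pre-B- and immature B-like cells 191 of 3839 and in preneutrophil-like cells 355 of 5525. Pro-B-like cells had 148 of 4216 and olfactory neuron-like cells 307 of 5218. The share of all genes called was 0.0406% in NK-like, 0% in border macrophage-like, 0.0291% in mature B-like, 0.022% in microglia-like, 0.901% in olfactory neuron-like, 0.339% in pre-B- and immature B-like, 1.07% in preneutrophil-like and 0% in pro-B-like cells, and 0% in empty droplets. The median fold change of the members tested ran from -0.30 in pre-B- and immature B-like to 0.40 in T-like cells. Over all genes tested the medians lay between -0.067 and 0.0022.

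*Fkbp5* had a positive fold change in every type in which it could be tested. It measured 26.9 and 20.4 CPM in the neutrophil-like cells of the HC pools and 46.8 in CSD, from 51, 27 and 159 UMIs. The rise passed the test (log2 fold change 1.18, SE 0.26, adjusted p = 6.21e-04 by edgeR), and it kept its direction against either HC pool alone (1.45 without HC replicate 1, 0.98 without HC replicate 2). In cDC-like cells *Fkbp5* stood at 19.6 and 15.7 CPM in the HC pools and 94.8 in CSD, 17, 5 and 34 UMIs, the largest change of the gene in any type (2.37, SE 0.45, adjusted p = 1.04e-04). In monocyte-like cells it was 21.6 and 45.2 CPM in the HC pools and 80.6 in CSD (1.35, SE 0.37, adjusted p = 0.0302). In all 3 types the CSD pool lay above both HC pools.

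Beyond these, *Fkbp5* was 59.9 and 59.4 CPM in the border macrophage-like cells of HC and 145 in CSD, a fold change of 1.34 (95% interval 0.53 to 2.15) that did not pass adjustment (SE 0.34, adjusted p = 0.998 by edgeR), although it was close to the monocyte-like change in size and SE. In T-like cells it was 20.1, 53.0 and 103 CPM (1.57, adjusted p = 0.583), from no more than 17 UMIs a library. Fibroblast-like cells (124, 147 and 181 CPM), NK-like cells (25.3, 41.9 and 57.2 CPM) and preneutrophil-like cells (14.0, 29.1 and 30.3 CPM) also had CSD highest, at 0.46, 0.83 and 0.77, without passing. The preneutrophil-like cells of HC replicate 2 were shallow, with a median of 880 UMIs against 10414.5 and 10432.5. Microglia-like cells were the exception, with the CSD value of 70.5 CPM between 83.8 and 47.6 (0.060, 95% interval -0.96 to 1.08). The fitted sign was thus positive in 9 of 9 types tested, and CSD lay above both HC pools in 8 of them. The 4 other types had fewer than 20 UMIs.

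The same order was present outside cells. In empty droplets *Fkbp5* measured 25.7 and 26.3 CPM in the HC libraries and 69.7 in the CSD library (1.52, adjusted p = 0.663 by edgeR). Taking all UMIs of B cell, fibroblast and olfactory genes in neutrophil-like sums as free RNA, at most 21.1%, 35.9% and 25.8% of the *Fkbp5* UMIs of the 3 libraries would be free. For cDC-like cells, with neutrophil genes as the measure, the limits were 40.8%, 42.7% and 17.1%. With that share subtracted the fold changes were 1.00 in neutrophil-like, 2.70 in cDC-like and 1.25 in monocyte-like cells, all in the same direction and none past adjustment (adjusted p = 0.988, 0.416 and 0.998 by edgeR). The part of free RNA in the calls was not tested further.

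**Figure D2:**
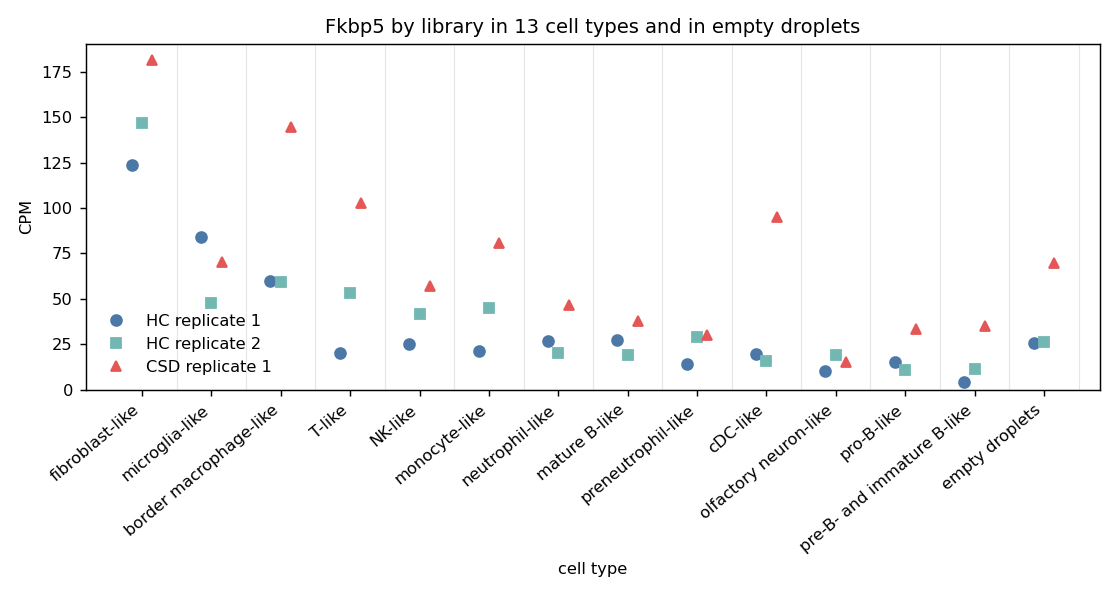
*Fkbp5* in CPM (vertical axis) by library in the 13 tested cell types and in empty droplets; each point is 1 library pooled from 4 mice, with no error bar. The CSD triangle is the highest of the 3 points in 11 of the 13 types, the exceptions being microglia-like and olfactory neuron-like cells, and in empty droplets.

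Per cell, the share of neutrophil-like cells with an *Fkbp5* UMI after thinning each cell to 500 UMIs was 0.893% in HC replicate 1 (exact Clopper-Pearson 95% interval 0.360% to 1.83%, 784 cells), 1.27% in HC replicate 2 (0.512% to 2.60%, 551 cells) and 2.99% in CSD (2.13% to 4.06%, 1306 cells). Unthinned shares were 5.99%, 4.90% and 11.1%. The intervals cover counting error only. In olfactory neuron-like cells, where *Fkbp5* was lowest, the unthinned shares were 5.00%, 7.14% and 7.14% at median depths of 4384, 4864 and 4292 UMIs, against 1914.5, 1800.0 and 2162.5 in neutrophil-like cells. The HC shares in neutrophil-like cells were of similar size to these, although their cells were shallower. In CPM, which divides by depth, *Fkbp5* in neutrophil-like HC cells was 26.9 and 20.4, against 10.4 and 19.3 in olfactory neuron-like cells. The CSD share was larger, with the olfactory neuron-like shares resting on 3, 3 and 5 cells. Thinned NK-like cells gave 1.82%, 2.88% and 2.14%, with overlapping intervals.

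Neutrophil-like cells comprised 3 clusters, in which *Fkbp5* was also read separately. Cluster 1, led by *Il1b*, *Cxcr2* and *Retnlg*, had 39.2 and 26.3 CPM in the HC pools and 85.0 in CSD (1.52, adjusted p = 0.0647 by edgeR on that cluster alone). Cluster 5, led by *Mmp8* and *Mmp9*, had 10.4, 22.6 and 37.3 CPM (1.37, adjusted p = 0.606). Cluster 2, the immature cells led by *Ltf*, *Camp* and *Ngp*, had 25.2, 15.6 and 23.0 CPM, from 22, 10 and 38 UMIs. There CSD lay between the HC pools (0.29, adjusted p = 0.939 by edgeR). The SE was 0.31, 0.54 and 0.41 in clusters 1, 5 and 2, and the difference between clusters was not tested. Clusters 1, 5 and 2 held 742, 197 and 367 CSD cells.

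**Figure D3:**
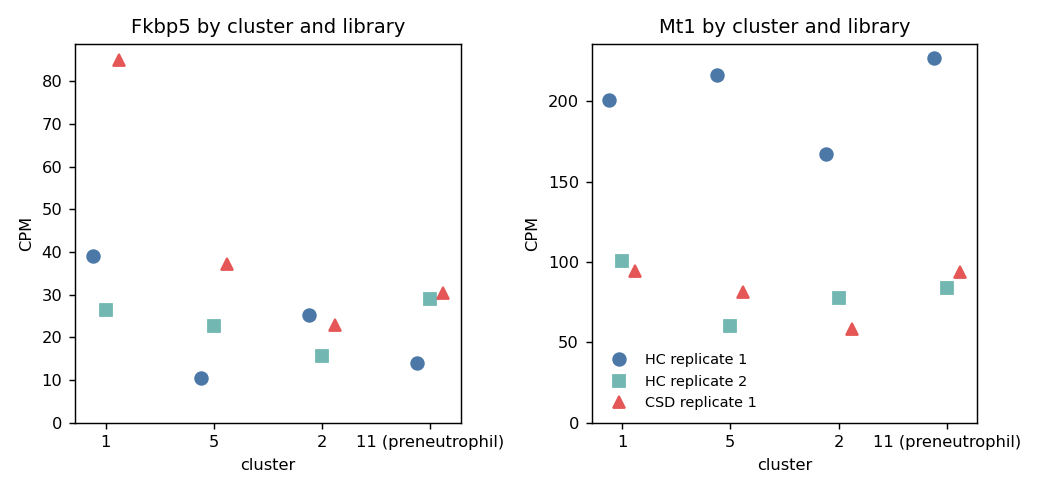
*Fkbp5* (left) and *Mt1* (right) in CPM in the neutrophil-like clusters 1, 5 and 2 and in the preneutrophil-like cluster 11; each point is 1 library. *Fkbp5* in CSD is well above both HC points in cluster 1 and lies between them in cluster 2, and for *Mt1* HC replicate 1 is far above the other libraries in every cluster.

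*Mt1* was called lower in neutrophil-like cells, but HC replicate 2 lay much nearer to CSD than to HC replicate 1. It measured 188 and 81.5 CPM in the HC pools and 74.5 in CSD, from 357, 108 and 253 UMIs (-0.66, SE 0.21, adjusted p = 0.0454 by edgeR). Against HC replicate 2 alone the fold change was 0.12, and against HC replicate 1 alone -1.15, so that HC replicate 1 carried the difference. With cells thinned to 500 UMIs it was 0.039. Free RNA at its upper estimate would supply 86.7%, 112% and 102% of the *Mt1* UMIs of neutrophil-like cells. The *Mt1* level of empty droplets was likewise highest in HC replicate 1. Thinned shares of neutrophil-like cells with an *Mt1* UMI were 7.78%, 3.27% and 5.21%, and unthinned shares 33.5%, 16.7% and 16.2%.

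In T-like cells *Mt1* fell from 180.5 and 121 CPM in the HC pools to 24.1 in CSD, from 36, 16 and 4 UMIs (-2.66, SE 0.64, adjusted p = 0.011 by edgeR), and CSD lay below both HC pools. At Leiden resolution 2, which drew the type differently, the fold change was -1.46 and the call was lost (adjusted p = 0.0515 by edgeR), as it was with median-of-ratios factors (adjusted p = 0.556). The 4 CSD UMIs were fewer than free RNA would supply at its upper estimate (414% of the measured sum), and 118% and 70.9% were the figures for HC. Mature B-like cells had 188, 171 and 80.5 CPM (-1.10, adjusted p = 0.583) and NK-like cells 138, 105 and 61.8 CPM (-0.99, adjusted p = 0.793), again lowest in CSD. *Mt1* fold changes were negative in 11 of 13 types, with a median of -0.50, but CSD lay below both HC pools in only 5.

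Fibroblast-like cells went the other way for both metallothioneins. *Mt2* rose from 180.4 and 156 CPM in the HC pools to 599.9 in CSD, 86, 49 and 43 UMIs, a log2 fold change of 1.84 (SE 0.29, adjusted p = 0.00116 by edgeR). *Mt1* stood at 835, 819 and 1451 CPM there (0.83, SE 0.22, adjusted p = 0.173 by edgeR). For both genes the HC pools lay close together and CSD above them, although the CSD value came from 22 cells. With every cell thinned to 500 UMIs *Mt2* was at 1.14 and lost its call (adjusted p = 0.645 by edgeR). At Leiden resolution 2 the fibroblast-like cells split into a cluster led by *Mgp* and *Igfbp5*, of 81, 60 and 9 cells, and one led by *Dcn* and *Apod*, of 44, 29 and 13, so that HC cells lay mostly in the first and CSD cells mostly in the second. The part of this makeup in the result was not tested. The upper estimate of free RNA in the CSD sum was 3.50% for *Mt2* and 6.34% for *Mt1*.

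Elsewhere *Mt2* did not pass the test. It was 31.1, 20.4 and 12.96 CPM in neutrophil-like cells (-0.80, adjusted p = 0.22 by edgeR) and 39.3, 41.7 and 10.7 CPM in mature B-like cells (-1.81, adjusted p = 0.784, 23 UMIs in all). Free RNA would supply over 100% of the neutrophil-like *Mt2* UMIs in each library. Olfactory neuron-like cells, with the most *Mt1* and *Mt2*, had 2241, 1598 and 2330.0 CPM of *Mt1* (0.25) and 804, 546 and 915 of *Mt2* (0.40), differences within the distance between the HC pools.

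**Figure D4:**
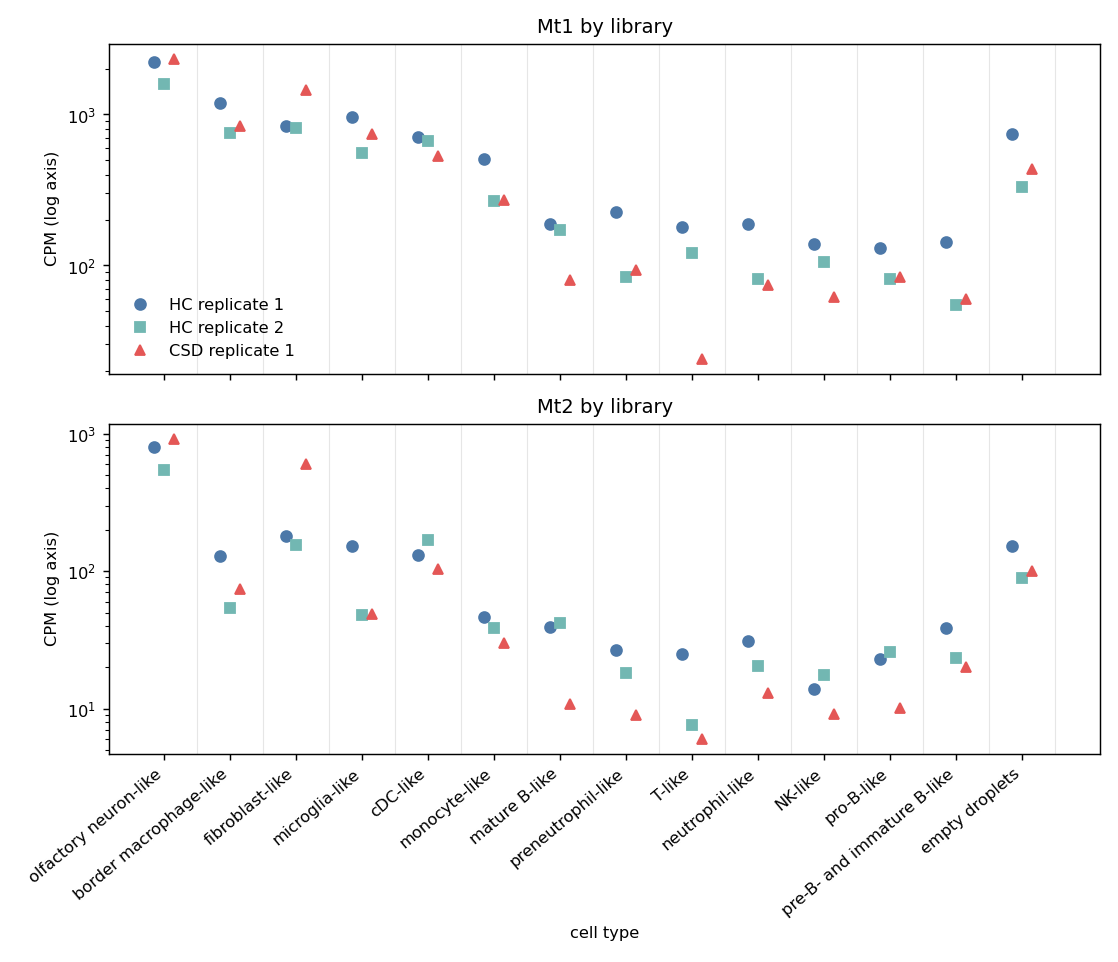
*Mt1* (top) and *Mt2* (bottom) in CPM on a log axis by library in the 13 tested cell types and in empty droplets; each point is 1 library. CSD is highest for both genes in fibroblast-like and olfactory neuron-like cells, and HC replicate 1 is the highest library for *Mt1* in 11 of 13 types, the exceptions being olfactory neuron-like and fibroblast-like cells.

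The receptor gene *Nr3c1* was not called in any type. In neutrophil-like cells it was 63.8, 65.6 and 60.4 CPM, a fold change of 0.13 with a 95% interval of -0.31 to 0.56, and -0.10 when libraries were scaled by total UMIs alone. The lowest values relative to HC were in pre-B- and immature B-like cells, at 129 and 97.2 CPM in the HC pools and 40.2 in CSD (-1.45, adjusted p = 0.558 by edgeR), in cDC-like cells, at 53.1, 66.0 and 27.9 CPM (-1.03, adjusted p = 0.826), and in microglia-like cells, at 158, 152 and 86.8 CPM (-0.80, adjusted p = 0.905). CSD lay below both HC pools in 4 of the 13 types and above both in 2.

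*Tsc22d3*, a direct receptor target, had positive fold changes in 9 of 13 types with a median of 0.25, none past adjustment. In neutrophil-like cells it was 149, 169 and 171 CPM, where HC replicate 2 and CSD were nearly equal before scaling (0.33, 95% interval -0.032 to 0.70, adjusted p = 0.477 by edgeR). In T-like cells it was 196, 189 and 308 CPM (0.65) and in NK-like cells 203, 202 and 259 (0.36), with CSD above both HC pools. *Ddit4*, the mTORC1 inhibitor, was positive in 8 of 11 types with a median of 0.62. Its CSD value exceeded both HC pools in 8 of these 11 types. Among them were border macrophage-like cells (33.4, 16.2 and 70.7 CPM, 1.33, adjusted p = 0.998 by edgeR) and pre-B- and immature B-like cells (34.5, 70.0 and 121 CPM, 1.21, adjusted p = 0.667). Empty droplets went the other way for *Ddit4*, with 36.0 and 36.7 CPM in the HC libraries and 21.5 in CSD (-0.65, adjusted p = 0.841 by edgeR).

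*Per1*, the clock repressor, was negative in 6 of 6 types with enough UMIs, and CSD lay below both HC pools in all 6. The counts were small. CSD was nearly equal to an HC pool in border macrophage-like (35.4, 32.4 and 32.2 CPM) and monocyte-like cells (18.0, 27.1 and 17.9 CPM). Against HC replicate 2 alone the border macrophage-like fold change was 0.033. CSD had the highest *Per1* level in 2 of 13 types, NK-like and olfactory neuron-like cells, which had under 20 UMIs. Fibroblast-like cells had 23.1 and 44.6 CPM in the HC pools and no UMI in CSD, where 3 UMIs would have been 41.9 CPM, so that no fold is given. In neutrophil-like cells *Per1* was 23.2, 26.4 and 17.1 CPM (-0.30, adjusted p = 0.809 by edgeR). In empty droplets the order was the opposite, with 25.7 and 17.9 CPM in the HC libraries and 37.5 in CSD (0.94, adjusted p = 0.838).

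*Sgk1* fold changes were negative in 8 of 10 types, with a median of -0.33. HC replicate 2 had the highest *Sgk1* level in 11 of 13 types, and its empty droplets also held the most, at 75.7 CPM against 46.3 and 34.0. In microglia-like cells, its main site, the CSD value fell between the HC pools (-0.21, 95% interval -0.81 to 0.39, adjusted p = 0.938 by edgeR). *Klf9* was split, at 5 positive and 5 negative. In fibroblast-like cells it was highest in CSD (0.29, -0.23 to 0.81, adjusted p = 0.801). *Txnip* was positive in 6 of 13 types. Its largest value, in fibroblast-like cells, came from 130.04, 140.2 and 223 CPM (0.75, adjusted p = 0.510).

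**Figure D5:**
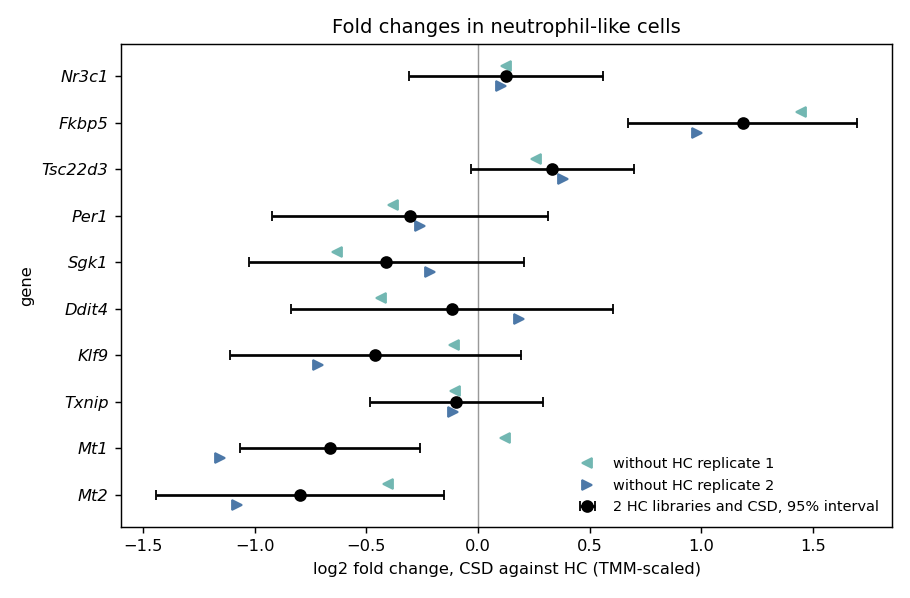
Log2 fold change of CSD over HC (horizontal axis, TMM-scaled edgeR fit) of the 10 genes in neutrophil-like cells; black points and bars are the fit with both HC libraries and its 95% interval, triangles the values against a single HC library. *Fkbp5* lies at 1.18 with both triangles at 0.98 or above, and for *Mt1* the triangles sit at -1.15 and 0.12, on either side of 0.

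Scaling mattered in neutrophil-like cells, where TMM and total UMIs differed so that the median of all genes was -0.022 under TMM and -0.25 under totals alone. Under totals *Fkbp5* was at 0.96 (adjusted p = 0.179 by edgeR) and *Mt1* at -0.88 (adjusted p = 0.375), and no member was called. Whether members changed differently in neutrophil-like cells than in other types was tested as an interaction with library as a block. Against mature B-like cells 0 of 7 members passed while 2.51% of genes did. At an unadjusted p under 0.05 there were 0 members and 345 of 3383 genes. *Fkbp5*, *Per1* and *Sgk1* had too few UMIs in mature B-like cells, so the change of *Fkbp5* could not be compared there. Against border macrophage-like cells 0 of 10 passed, where 0.018% of genes did and 365 of 5563 had an unadjusted p under 0.05. There the fold change of *Fkbp5* differed by -0.30 (95% interval -1.15 to 0.55), and *Ddit4* was the only member at an unadjusted p under 0.05 (-1.41, adjusted p = 0.685 by edgeR). DESeq2 also called 0 in both.

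Other genes of the pathway were read from the same fit in neutrophil-like cells, where the median of all 7921 genes was -0.022, 3.17% were called (1.25% higher and 1.92% lower) and 1009 had an unadjusted p under 0.05. On the receptor side (chaperones, coregulators and hormone-converting enzymes), 0 of 19 genes tested were called by edgeR, 3 had an unadjusted p under 0.05, DESeq2 called 0, and the median was -0.13. Among 30 target genes 3 were higher and 3 lower, with a median of -0.22. All gene lists were chosen with earlier results of these data known. The study itself names *Il1r2* among genes that differed in neutrophils after CSD, and *Lcn2* among those raised. Calls on the lists are therefore not an independent test against the share of all genes called. *Il1r2*, the decoy receptor of interleukin 1, rose from 121 and 140.3 CPM to 279.5 (1.33, adjusted p = 8.48e-11). *Lcn2*, an iron-sequestering granule protein, rose by 0.66 and *Anxa1*, the annexin that limits neutrophil recruitment, by 0.56 (adjusted p = 0.00156 and 0.0151). In empty droplets all 3 were positive as well, at 1.36, 0.76 and 0.65 in that order.

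The listed genes that fell were *Dbp*, a clock output factor, *Tsc22d1*, a relative of *Tsc22d3*, and *Cxcr4*, the marrow retention receptor. *Dbp* was at 15.3, 11.3 and 2.36 CPM (-2.28, adjusted p = 0.00301 by edgeR). *Tsc22d1* was at 47.4, 71.7 and 19.1 CPM (-1.39, adjusted p = 3.48e-05) and *Cxcr4* at 24.8, 32.4 and 11.2 CPM (-1.11, adjusted p = 0.0354). Calls on this mixed list thus went in both directions, and *Tsc22d1* and *Tsc22d3* had opposite signs. Receptor targets were not tested apart from the clock and thioredoxin genes. Empty droplets gave -1.64 for *Dbp* and -1.16 for *Tsc22d1*, the sign seen in cells, and 1.33 for *Cxcr4*, the opposite sign. The part of free RNA in these calls was not tested. On the metal side 1 of 12 genes was called, where 3.17% of all genes were. It was the zinc importer *Slc39a1* at 5.27, 25.7 and 3.83 CPM (-1.65, adjusted p = 0.0358 by edgeR). Its fold change was -0.28 without HC replicate 2 and -0.82 in empty droplets. The median of that list was 0.13.

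Genes that respond to tissue dissociation were read as a separate list, since immediate early genes and metallothioneins can both change during digestion. Of 22 tested in neutrophil-like cells, 19 had negative fold changes and 3 were called lower by edgeR, where 1.92% of all genes were. The list median was -0.29, against -0.022 for all genes. Those called were *Atf3* (78.5, 76.2 and 20.6 CPM, -1.68), *Egr1* (62.7, 55.1 and 16.2 CPM, -1.64) and *Nr4a1* (35.3, 53.6 and 18.0 CPM, -1.05). The summed level of the 28 genes was 4154, 5080.4 and 3445 CPM. Over the 13 types the median of the list ran from -0.63 in olfactory neuron-like to 0.083 in fibroblast-like cells, the only type above 0, and it was -0.38 in empty droplets. The part of dissociation in the results was not tested.

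Across the 17 cell types and 7361 genes of at least 200 UMIs, the genes closest to selected members by Pearson correlation of mean log2(CPM + 1) were listed as a description of points that share libraries and depth. *Mt1* was most like *Mt2* (r = 0.92), then *Mfsd1* and *Mbnl2* (both 0.88). *Tsc22d3* was most like *Nr3c1* itself (0.87), followed by *Ctso* and *Tgfbr2* (both 0.84). *Fkbp5* was most like *Rassf2* (0.90), *Laptm4a* (0.86) and *Cd151* (0.83), and *Txnip* like *Junb*, *Srsf5* (both 0.84) and *Trim12a* (0.81). *Nr3c1* and *Mt1* showed little likeness (0.039).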

How the data were processed

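Per the labels and the study's methods, sorted meningeal cells were captured by 10x 3′ v2 chemistry and counted with Cell Ranger 2 against mm10 (submitters' processing notes). The authors deposited UMI counts as whole numbers, neither filtered nor normalized, for 27998 genes and 2211840 barcodes of 3 libraries. Libraries were told apart by the barcode suffix, taken as the group number in the labels, and shared 8, 6 and 3 cell barcodes pairwise.

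Barcodes with at least 500 UMIs, 174 to 4548 genes and under 8.3% mitochondrial UMIs were kept (median 1.78%, 1.83% and 0.991% mitochondrial, 2503, 2212 and 2400.5 UMIs). Scrublet's automatic threshold marked 1.81% and 1.47% of cells as doublets in the HC libraries. In CSD the automatic share fell outside 0.5% to 15%, so a score rank cut set at 5.1% was used instead and marked 4.14%. Doublets were kept, and removed as an alternative, which thus treated HC and CSD by unlike rules. Cells were clustered on 50 components after mutual-nearest-neighbor correction (Leiden, resolution 1, scanpy 1.11.5), without the genes described and the listed pathway genes. Clusters were named by marker lists. The leading list had to exceed the next by 0.25 in score, a rule set after seeing the data. No such gap was asked between lists of the neutrophil line or between B cell lists. The preneutrophil-like cluster scored 2.19 on its own list against 2.16 on the immature neutrophil list. UMIs summed per library and type were tested with edgeR 4.0.16 (R 4.3.3, TMM, glmQLFit and glmQLFTest, two-sided), on genes of at least 20 UMIs, and with DESeq2 1.42.0. Tests were also run on generated counts with known changes, drawn with the same spread in every library. Such counts cannot show how the test behaves if the lone CSD pool has a spread of its own. Free RNA was scaled from barcodes of at most 100 UMIs. GENCODE and RefSeq annotations of GRCm38 gave coordinates and sequences. All members were named in each comparison, and up to 3 rises and 3 falls past the threshold per pathway list. Members and lists were chosen with earlier results of these data known. The scaling by totals, the legacy spread of edgeR and thinned levels were added after seeing the data.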

Additional observations from a re-analysis of the deposited data

Results flagged for a closer look

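*Fkbp5* in empty droplets drew attention because these barcodes of at most 100 UMIs are not cells and enter no comparison between cell types. Its level there was 69.7 CPM in CSD, from 39 UMIs, against 25.7 and 26.3 CPM in HC replicate 1 and HC replicate 2, from 20 and 56 UMIs. The log2 fold change was 1.52 (95% interval 0.70 to 2.35, adjusted p = 0.663 by edgeR). Its part in the levels of cells was not tested beyond the subtraction given above.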

How the results depend on the processing

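No paired analysis was possible because every library was its own pool of mice and no label matches pools across groups. Calls were not recomputed without either HC pool, since 1 library against 1 leaves no residual degree of freedom; fold changes were. *Fkbp5* kept its direction in neutrophil-, cDC- and monocyte-like cells under every alternative run, and in microglia-like cells its 0.060 turned to -0.23 without HC replicate 2. In neutrophil-like cells its fold change was 1.00 with free RNA subtracted, 1.23 without doublets, 1.06 at a minimum of 1000 UMIs, 1.20 by DESeq2, 0.96 by totals, 1.26 with no count minimum, and 1.52, 0.29 and 1.37 in clusters 1, 2 and 5, none past the threshold, with adjusted p from 4.92e-04 to 1.00 over all alternatives. In cDC-like cells the call was lost at 2.70, 2.24, 2.42, 2.35 and 2.34 (free RNA subtracted, no batch correction, DESeq2, totals, no minimum) and the value was 2.25 to 2.62 without either HC pool. In monocyte-like cells it was lost at 1.25 (free RNA subtracted), 1.23 (doublets removed), 1.16 (no batch correction), 1.33 (DESeq2), 1.30 (totals) and 1.35 (no minimum), and ran from 0.90 to 1.89 without either HC pool. *Mt2* in fibroblast-like cells lost its call at 1.14 (thinned), 1.78 (doublets removed), 1.87 (DESeq2) and 1.59 (no minimum), and *Mt1* in T-like cells at -1.46 (resolution 2), -2.68 (DESeq2), -2.67 (median of ratios) and -2.63 (no minimum).

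*Mt1* in neutrophil-like cells turned to 0.039 when thinned and ran from -1.15 to 0.12 without either HC pool. Its call was lost at -7.89 with free RNA subtracted (a fitted value that depends on the prior count), -0.67 without doublets, -0.75 at 1000 UMIs, -0.69 at a mitochondrial limit of 5% and without batch correction, -0.52 and -0.72 in clusters 1 and 5, -0.64 with preneutrophil-like cells and by DESeq2, -0.66 by median of ratios, -0.88 by totals, -0.59 with no minimum and -0.81 among genes in over 15% of cells. Among members that were not called, signs turned for *Nr3c1* (-0.064 free RNA subtracted, -0.16 thinned, -0.018 and -0.27 in clusters 1 and 5, -0.10 totals), *Tsc22d3* (-0.29, cluster 5), *Per1* (0.57, cluster 2), *Sgk1* (0.061, cluster 5), *Ddit4* (0.33 free RNA subtracted, 0.012 cluster 1, 0.18 without HC replicate 2), *Klf9* (0.24, cluster 1) and *Txnip* (0.083 and 0.31, clusters 2 and 5).

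Of the 10 members, 2 were called in neutrophil-like cells. The count was 1 under thinning, the 5% limit, no batch correction, median of ratios, cluster 2 alone or added preneutrophil-like cells. It was 0 with free RNA subtracted, doublets removed, 1000 UMIs, clusters 1 or 5 alone, DESeq2, totals, no minimum or the 15% filter. In this and the following counts, genes too low to be tested under a setting were counted as not called. *Fkbp5* was not tested under the 15% filter. The 4 calls in other types became 1 with free RNA subtracted, 2 with doublets removed and 0 when thinned, by DESeq2 or with no minimum. When thinned, *Fkbp5* in cDC- and monocyte-like cells and *Mt1* in T-like cells had under 20 UMIs and were not tested. *Mt1* in T-like cells was likewise too low to be tested with free RNA subtracted. The 7 pathway genes became 4 at the 5% limit, 3 at 1000 UMIs, 2 when thinned or by totals, 1 by DESeq2 and 0 with free RNA subtracted, doublets removed, no minimum or the 15% filter. All genes called in neutrophil-like cells numbered 251, and 0 with doublets removed, 1 with free RNA subtracted, with no minimum or under the 15% filter, 23 by DESeq2, 54 by totals, 55 when thinned, 95 at 1000 UMIs, 127 with preneutrophil-like cells, 143 at the 5% limit, and 28, 100 and 3 in clusters 1, 2 and 5. Over the alternatives, calls among all genes ran from 0 to 29 in T-like cells (15 in the analysis reported), 0 to 26 in cDC-like (21), 0 to 50 in fibroblast-like (21), 0 to 70 in monocyte-like (66), 0 to 45 in NK-like (2), 0 to 59 in preneutrophil-like (59) and 0 to 47 in the others. The causes were not tested.

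With free RNA subtracted the highest levels moved up in the same types, to 172 CPM (*Nr3c1*), 182 (*Fkbp5*), 622 (*Sgk1*), 795 (*Klf9*), 371 (*Txnip*), 2590 (*Mt1*) and 976 (*Mt2*), and *Fkbp5* in fibroblast-like cells was 64.1 when thinned. Shares of neutrophil-like cells with a UMI were 5.99%, 4.90% and 11.1% (*Fkbp5*) and 33.5%, 16.7% and 16.2% (*Mt1*) unthinned. Under 20 UMIs were found for *Per1* in 7 of 13 types, *Fkbp5* and *Mt2* in 4, *Sgk1* and *Klf9* in 3 and *Ddit4* in 2.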
